A study of Mus musculus with 24 samples.

Results

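The colon of mice with T cell transfer colitis that had received a MEK inhibitor at 1 mg/kg was compared with the colon of untreated mice, to describe what still differed from untreated tissue at the higher of the doses given. The comparison rested on 8 of the 24 RNA-seq libraries of the series, 4 labelled MEK inhibitor 1 mg/kg (called MEKi 1 here) and 4 labelled Normal, chosen by their labels and not by any measured value. All animals were female C.B-17/Icr-scid/scid (SCID) mice, bought at 7 weeks of age, a strain whose scid mutation keeps its own T and B lymphocytes from maturing. MEKi 1 mice were injected with CD4+ T cells of BALB/c spleens that had been activated for 3 days with interleukin-2 at 10 ng/mL and the mitogen concanavalin A at 4 μg/mL. They took the inhibitor by mouth in enteric microparticles, daily, starting on day 17 after transfer and ending on day 27. Their distal colon was taken on day 28. Normal mice are labelled with no treatment, read here as no cells, drug or microparticles, and the age or day at which their colon was taken is not given in the sources used here. Transfer, inhibitor and carrier thus separate the groups together and cannot be told apart in this comparison. As a level for colitis without the drug, the 4 Vehicle libraries (the same transfer, 0.5% methylcellulose) are placed beside the results.

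Naive or activated CD4+ T cells placed in a lymphocyte-deficient host expand against the gut flora, home to the colon through integrins such as alpha4beta7, and release interferon-gamma, TNF and other cytokines. Interferon-gamma acts on epithelial and myeloid cells, inducing guanylate-binding proteins, immunity-related GTPases, chemokines that recruit more T cells, and the machinery of antigen presentation. MEK is the kinase that activates ERK1 and ERK2 in the growth factor and antigen receptor pathways, and DUSP and SPRY proteins and the transcription factors Etv4 and Etv5 are transcribed in response to ERK.

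Total counts ran from 3052940 to 5358259 in the Normal libraries, from 3175698 to 4678256 in MEKi 1 and from 4102817 to 5271844 in Vehicle. The labels number 4 replicates per group without saying that each was a separate mouse, so p-values measure the spread between replicate libraries, which may be in part technical. This spread was estimated over all 24 libraries of the series, not only over the groups compared. In the table of the whole series, 16 of the 24 columns carry the name of another sample than the one whose own file holds the same counts, and groups were taken from the samples' own files. By those files, the counts of 7 T cell receptor genes summed to between 0 and 12 in Normal, to between 124 and 298 in MEKi 1 and to between 361 and 600 in Vehicle, whereas by the table's names 1 library called Normal would hold 348. With the table's names, 1 gene differed between the groups. With only the libraries named alike in both (2 per group), 73 genes differed. The MEKi 1 libraries were not alike: on the first principal component of the 12 libraries, which held 58.5% of the variance, Normal lay between -77 and -62.9 and Vehicle between 55.7 and 73.4. MEKi 1 replicates 1 to 4 lay at -19.1, 35.8, -10.3 and 13.2. Longer transcripts were relatively less covered in Vehicle than in Normal libraries, and MEKi 1 replicate 4 sat with Vehicle in this (median log2 level against the mean of the 12 libraries, the longest of 5 bins of genes minus the shortest: -0.3 against 0.08 to 0.17 in the other MEKi 1 libraries and 0.19 to 0.35 in Normal). With an offset for length 1895 genes differed, against 1898 without it, and the calls of Slc26a3, Krt20 and Col6a3 were lost. One Vehicle library, replicate 4, held a summed 6070 CPM (read counts scaled to a common library size) of pancreatic enzyme genes, against 28.5 to 39.6 CPM in the other Vehicle libraries, 67.6 to 172 CPM in MEKi 1 and 328 to 468 CPM in Normal. Of these 10 genes, 6 had no count in the Normal libraries together and 3 had none in the MEKi 1 libraries. The Normal sum thus came from few of the genes and does not stand for the whole set. Markers of the labelled tissue were present throughout: Muc2 of goblet cells was at 2530 CPM or more and Krt20 of surface epithelium at 731 CPM or more in these 12 libraries.

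Of 14773 genes tested, 1898 (12.8%) differed between MEKi 1 and Normal at an adjusted p under 0.05 (edgeR's quasi-likelihood F test with Benjamini-Hochberg adjustment). In MEKi 1, 1190 genes (8.06%) were higher and 708 (4.79%) were lower, and 654 (4.43%) and 355 (2.4%) of these by more than 2-fold. Colitis without the drug differed from Normal in 6853 genes (46.4%), a comparison that shares the Normal libraries. Leaving out MEKi 1 replicate 2 took the count of genes that differed from 1898 to 1026, leaving out replicate 4 took it to 1243, and leaving out Normal replicate 4 took it to 1255. The genes that were lower went from 708 to 271, 320 and 424 in those fits, and those that were higher from 1190 to 755, 923 and 831. In a fit of only the groups compared, 889 genes were higher and 842 lower. Across all genes the median log2 fold change was 0.01. Where a gene is said to go from one level to another, the first is the Normal range and the second that of MEKi 1, with single values in the order of replicates 1 to 4.

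**Figure D1:**
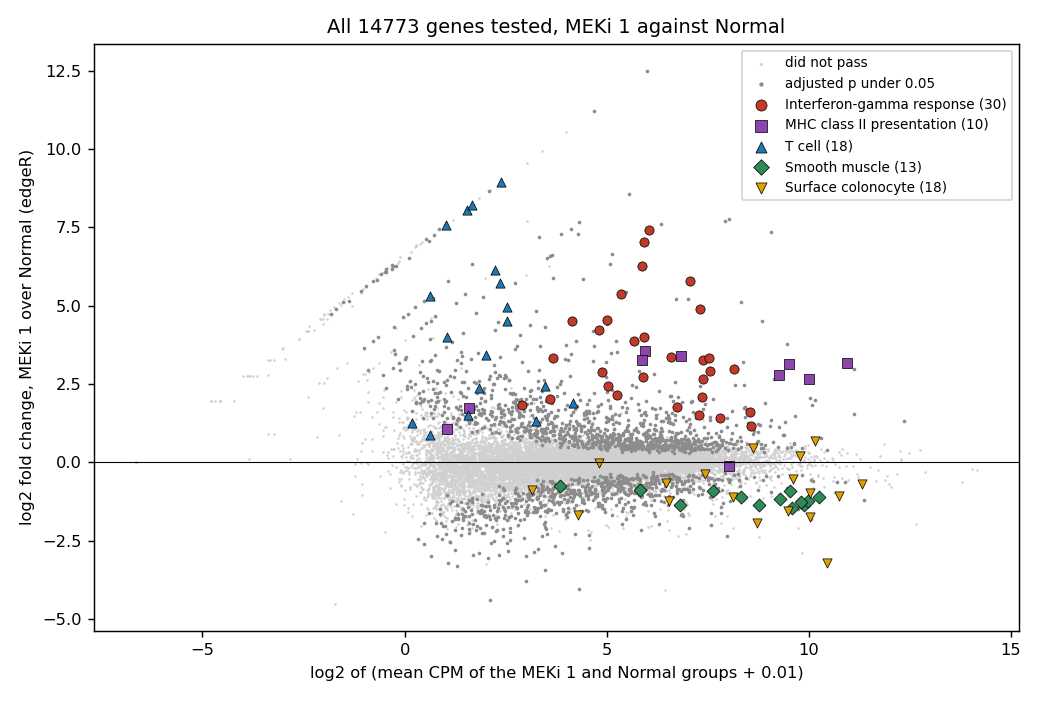
Each point is 1 of the 14773 genes tested, placed by its mean level (log2 of the mean CPM of both groups plus 0.01, horizontal axis) and its log2 fold change of MEKi 1 over Normal (vertical axis), with dark grey for an adjusted p under 0.05 and coloured symbols for 5 gene lists. The interferon-gamma, T cell and most MHC class II genes lie above 0, the 13 smooth muscle genes below it, and the 18 surface colonocyte genes on both sides.

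T cell transcripts were low in the Normal colon and higher in every MEKi 1 library. Of 18 T cell genes, 16 rose (against 8.06% of all genes tested), none fell, and the median log2 fold change was 4.24. In the 4 Normal libraries together, 4 of the 18 had no count at all. Their summed level was 22.1 to 25.1 CPM in Normal, 133, 220, 164 and 110 CPM in MEKi 1 replicates 1 to 4, and 246 to 338 CPM in Vehicle. All 4 MEKi 1 libraries lay above Normal and below Vehicle. In bulk tissue, fewer cells of a type and less RNA per cell cannot be told apart. Cd3e, a signalling chain of the T cell receptor complex, had no count in the 4 Normal libraries and 4.58, 8.37, 4.6 and 5.55 CPM in MEKi 1, at least 34.6-fold higher against a floor of 3 counts over the Normal group (adjusted p = 3.97e-06). Trac, the constant region of the receptor's alpha chain, likewise had no count in Normal and was at least 38.7-fold higher (adjusted p = 3.5e-07). Cd5, which dampens receptor signalling, had no count in Normal, 11.2, 19.5, 8.18 and 3.12 CPM in MEKi 1, and at least 67.4-fold higher (adjusted p = 3.5e-07). Cd3g had 3 counts in all Normal libraries together and 7.79, 9.42, 15.3 and 7.63 CPM in MEKi 1, 59.3 times the Normal level (95% interval from counting error, 19.9 to 290) (adjusted p = 2.19e-08). None of these 4 genes overlapped between the groups. The 2 list members that did not pass were Cd28 and Cd27, at log2 fold changes of 0.87 and 1.26.

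Of 11 checkpoint and regulatory T cell genes tested, 7 rose and none fell. Summed, these genes were at 14.3 to 16.1 CPM in Normal, 32.1, 55.1, 41.2 and 21.5 CPM in MEKi 1 and 54.3 to 68.9 CPM in Vehicle, with MEKi 1 replicate 2 in the Vehicle range. Ctla4, an inhibitory receptor, had no count in Normal and 1.83, 2.3, 1.28 and 1.04 CPM in MEKi 1, at least 9.94-fold higher (adjusted p = 4.25e-05). Lag3, another inhibitory receptor, was at 0.673 to 2.22 CPM in Normal and 3.12 to 10.3 CPM in MEKi 1 (log2 fold change 2.06, SE 0.37, adjusted p = 0.000429). The Vehicle range of Lag3, 7.51 to 13.5 CPM, overlapped that of MEKi 1. Of 8 cytotoxic and NK cell genes tested, 6 rose and none fell. Gzma, which encodes the serine protease granzyme A, was at 0 to 0.436 CPM in Normal and at 14.4, 12.8, 14.6 and 10.1 CPM in MEKi 1 (log2 fold change 5.71, SE 0.71, adjusted p = 7.09e-06). Ccl5, a chemokine made by effector T cells, was at 0.369 to 0.872 CPM in Normal, 11.9 to 26.6 CPM in MEKi 1 and 36.1 to 69.6 CPM in Vehicle (log2 fold change 4.83, SE 0.77, adjusted p = 0.000233). Among 10 homing genes, 9 rose, including Itgb7, the beta7 integrin subunit used to enter the gut, from 4.71 to 10.5 CPM in Normal to 30.5, 42.3, 35.3 and 19.1 CPM in MEKi 1 (log2 fold change 2.17, SE 0.26, adjusted p = 2.86e-06). Tnfrsf8, which encodes the activation receptor CD30, stood above both other groups in level: 0 to 0.433 CPM in Normal, 35.1, 32.7, 34.8 and 52 CPM in MEKi 1, and 11.4 to 27.7 CPM in Vehicle (log2 fold change over Normal 7.28, SE 0.77, adjusted p = 1.43e-06). Its difference from Vehicle did not pass (log2 fold change 1.05, SE 0.43, adjusted p = 0.11).

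The cytokine genes themselves were scarce. Ifng had no count in Normal and 0.458, 3.35, 0.767 and 0.693 CPM in MEKi 1, at least 8.47-fold higher (adjusted p = 0.034), with 1.71 to 5.68 CPM in Vehicle. The Ifng call was lost without MEKi 1 replicate 2, the library with the highest level, and without any 1 of the 4 Normal libraries. Il17a had no count in Normal, 0.229, 1.05, 0 and 0 CPM in MEKi 1, and was too low to be tested. Tbx21, the transcription factor of interferon-gamma-producing T cells, rose from 0.336 to 0.554 CPM in Normal to 2.98, 1.26, 2.56 and 2.43 CPM in MEKi 1 (log2 fold change 2.28, SE 0.51, adjusted p = 0.00456).

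The interferon-gamma response was raised as a whole. All 30 listed genes rose, none overlapped between the groups (9.52% of all genes lay higher without overlap), and the median log2 fold change was 3.13. Their summed level was 1010 to 1120 CPM in Normal and 3750, 7160, 4150 and 7780 CPM in MEKi 1, with 5820 to 6320 CPM in Vehicle, so that MEKi 1 replicates 2 and 4 lay above the Vehicle libraries and replicates 1 and 3 below them. Irgm2, an immunity-related GTPase that acts on intracellular pathogens, was at 23.1, 19.5, 13.1 and 12.2 CPM in Normal and at 118, 205, 149 and 225 CPM in MEKi 1 (log2 fold change 3.36, SE 0.23, adjusted p = 1.99e-10). Tgtp1, a GTPase of the same family, was at 0 to 1.74 CPM in Normal and at 58.9, 173, 83.6 and 169 CPM in MEKi 1 (log2 fold change 7.03, SE 0.54, adjusted p = 1.26e-08), with 98.5 to 119 CPM in Vehicle. Tgtp1 has a near-identical neighbour, Tgtp2, and reads could have been split between them, so the change of either alone is uncertain. Cxcl9, a chemokine that draws CXCR3-bearing T cells, was at 0.336 to 1.73 CPM in Normal and at 36.9, 227, 63.9 and 194 CPM in MEKi 1 (log2 fold change 7.42, SE 0.88, adjusted p = 1.06e-05). The Vehicle libraries held 206 to 324 CPM of Cxcl9. Tap1, a subunit of the transporter that loads peptides onto MHC class I, rose from 20.7 to 43.7 CPM to 242, 417, 256 and 438 CPM (log2 fold change 3.32, SE 0.25, adjusted p = 2.09e-09), and Vehicle held 316 to 387 CPM. Nlrc5, the transactivator of MHC class I genes, was at 1.31 to 3.69 CPM in Normal and at 44.2 to 92.3 CPM in MEKi 1 (log2 fold change 4.55, SE 0.36, adjusted p = 7.05e-09).

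The promoters of these genes are shown with 2 elements through which interferons are known to act. The first is the gamma-activated site of interferon-gamma signalling (GAS, searched as TTCNNNGAA). The other is the core of the interferon-stimulated response element that IRF factors bind (ISRE, searched as GAAA, any 2 bases and GAAA). RefSeq promoter sequences (GRCm38.p6) were found for 20 of the 30 genes. In the 250 bases before the start, on either strand, 9 of the 20 held a GAS and 11 an ISRE core, against 7.0% and 3.1% of the 27025 promoters in the same table. The genes were listed as interferon-gamma responders before the search, so more matches than in other promoters are no separate evidence. The 5 below held both within 120 bases of the RefSeq start. For Irgm2 and Tgtp1 that start lay 15359 and 1926 bases from the gene's start in the GENCODE annotation. For Gbp7, Igtp and Tgtp2 it lay 6, 0 and 6 bases from it. Each promoter is given 5′ to 3′ on the strand of the gene, ending at the base before the RefSeq start, with GAS and ISRE matches in capitals.
Gbp7, chr3:142530216-142530335, plus strand: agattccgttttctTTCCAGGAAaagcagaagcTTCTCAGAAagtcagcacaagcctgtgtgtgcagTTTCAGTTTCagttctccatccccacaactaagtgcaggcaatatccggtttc
Igtp, chr11:58199436-58199555, plus strand: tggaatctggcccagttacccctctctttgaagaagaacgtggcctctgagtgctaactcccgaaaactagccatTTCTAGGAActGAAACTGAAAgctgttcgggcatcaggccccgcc
Irgm2, chr11:58214857-58214976, plus strand: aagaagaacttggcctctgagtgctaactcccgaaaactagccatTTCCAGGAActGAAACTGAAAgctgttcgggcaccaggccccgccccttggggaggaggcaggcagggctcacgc
Tgtp1, chr11:48992247-48992366, minus strand: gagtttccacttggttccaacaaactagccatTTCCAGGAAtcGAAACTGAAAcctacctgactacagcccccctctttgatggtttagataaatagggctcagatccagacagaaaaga
Tgtp2, chr11:49064213-49064332, minus strand: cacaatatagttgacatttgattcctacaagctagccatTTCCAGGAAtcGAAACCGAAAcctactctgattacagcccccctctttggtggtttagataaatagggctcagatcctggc
In the 4 immunity-related GTPase genes (Igtp, Irgm2, Tgtp1 and Tgtp2) the GAS begins 11 bases before the ISRE core, although the ISRE core begins 34 bases before the start in Igtp and 77 bases before it in Tgtp1. The bases just before the GAS are the same in all 4, so the shared spacing is not 4 separate observations. In Gbp7 the nearer GAS begins 34 bases before the ISRE core, which is on the opposite strand. The 5 genes rose by 2.14 (Gbp7), 4.9 (Igtp), 3.36 (Irgm2), 7.03 (Tgtp1) and 5.38 (Tgtp2) on the log2 scale. A match is a stretch of letters and no evidence that a factor bound there in these tissues.

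Most antigen presentation genes were also higher in MEKi 1 than in Normal. Of 10 MHC class II presentation genes, 8 rose, none fell, and the median log2 fold change was 2.97. Cd74, the invariant chain that guides class II molecules through the cell, was at 393, 342, 414 and 418 CPM in Normal and at 3580, 3980, 2930 and 3770 CPM in MEKi 1 (log2 fold change 3.19, SE 0.16, adjusted p = 6.6e-13). Vehicle held 3490 to 4690 CPM of Cd74, a range that overlapped MEKi 1. H2-Ab1, the beta chain of I-A, went from 137 to 154 CPM in Normal to 1380, 1360, 1130 and 1340 CPM in MEKi 1 (log2 fold change 3.15, SE 0.15, adjusted p = 6.6e-13). H2-Eb1, the beta chain of I-E, went from 144 to 167 CPM to 975 to 1190 CPM (log2 fold change 2.78, SE 0.16, adjusted p = 5.34e-12). H2-DMa, which helps to load class II molecules, went from 19 to 22.7 CPM to 168 to 252 CPM (log2 fold change 3.39, SE 0.19, adjusted p = 5.34e-12). The members that did not pass were Ctss, a protease that processes the invariant chain (log2 fold change -0.13), and H2-Ob (1.07). Promoters of 8 of the 10 genes were in the table, and 3 held the Y box that NF-Y binds in class II promoters (CTGATTGG or its reverse complement in the 250 bases before the start), against 4.1% of all promoters. The same letters were in 4 of 11 MHC class I, 5 of 20 interferon-gamma, 2 of 10 smooth muscle and 0 of 10 T cell promoters. They were thus not particular to class II genes. The promoters of the I-A alpha chain and the I-E beta chain are given with the Y box in capitals.
H2-Aa, chr17:34287824-34287943, minus strand: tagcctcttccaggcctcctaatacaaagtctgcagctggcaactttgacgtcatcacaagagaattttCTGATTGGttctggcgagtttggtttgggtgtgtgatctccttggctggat
H2-Eb1, chr17:34305747-34305866, plus strand: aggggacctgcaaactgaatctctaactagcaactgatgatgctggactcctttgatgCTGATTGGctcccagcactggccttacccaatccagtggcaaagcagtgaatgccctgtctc
Of 12 MHC class I genes, 11 rose, none fell, and the median log2 fold change was 1.38. H2-K1, the classical class I heavy chain K, was at 436 to 478 CPM in Normal and at 1580, 1830, 1460 and 2370 CPM in MEKi 1 (log2 fold change 2, SE 0.15, adjusted p = 1.12e-09). The class I genes are close copies of one another, and reads could have been shared among them. Of 23 type I interferon response genes, 14 rose and none fell, with a median of 0.99. Zbp1, a sensor of Z-form nucleic acids that can trigger necroptosis, rose from 22.9 to 60.9 CPM to 135, 211, 116 and 241 CPM (log2 fold change 2.09, SE 0.25, adjusted p = 3.09e-06). It belongs to the 12 gasdermin and cell death genes, of which 6 rose and 1 fell (Gsdma, log2 fold change -1.96), with a median of -0.10. Without Normal replicate 3 or 4 or MEKi 1 replicate 2 or 4 none of the 12 fell. The pore-forming Gsdmc2, Gsdmc3 and Gsdmc4 lay lower without overlap and did not pass (-1.51, -1.72 and -2.1). Among those that rose, the necroptosis genes Ripk3 and Mlkl rose by 1.71 (SE 0.34, adjusted p = 0.00182) and by 1.43 (SE 0.23, adjusted p = 0.000151) on the log2 scale.

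**Figure D2:**
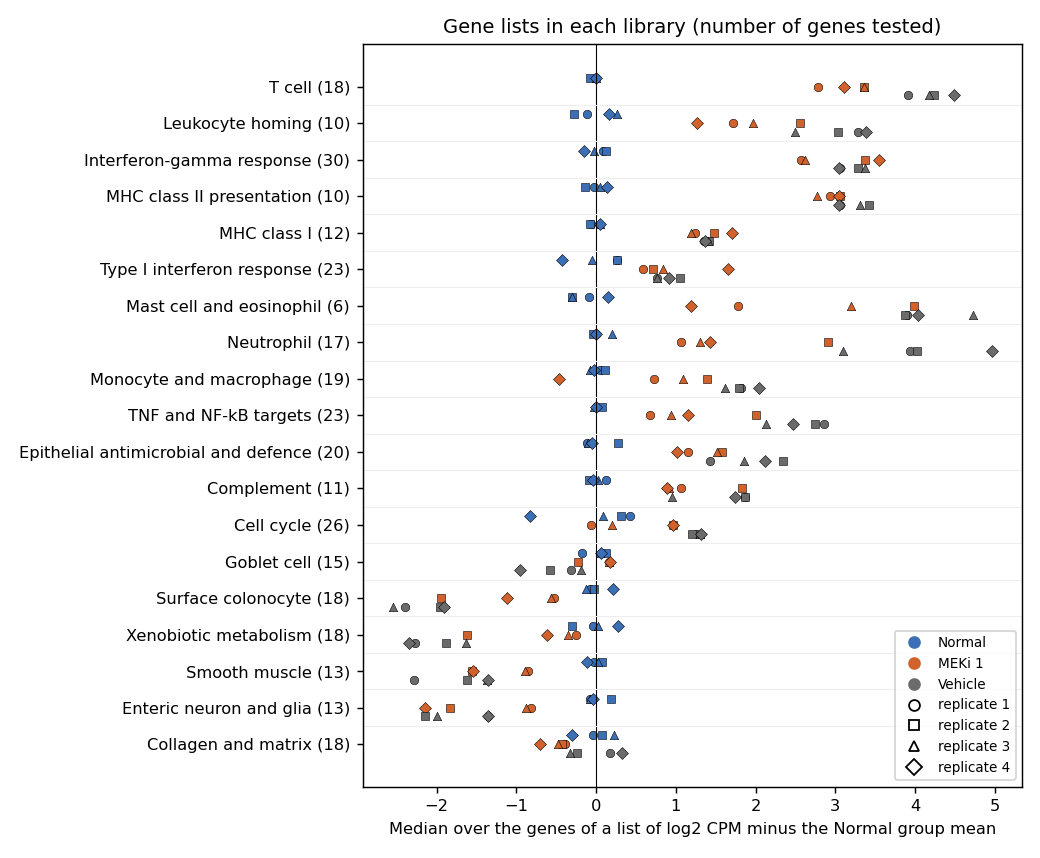
Each row is a gene list with its number of tested genes, and each point is 1 library, placed by the median over the list of log2 CPM minus the Normal group mean (horizontal axis), with colours for the group and symbols for the replicate. The interferon-gamma and MHC lists of MEKi 1 lie in or beside the range of Vehicle, the neutrophil and NF-kB target lists lie between the groups with replicate 2 highest, and the smooth muscle list lies below Normal in all 4 MEKi 1 libraries.

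Transcripts of neutrophils were low, and uneven between the MEKi 1 libraries. The summed level of the neutrophil genes was 13.8 to 21.4 CPM in Normal, 38.3, 244, 78.5 and 137 CPM in MEKi 1 and 565 to 1300 CPM in Vehicle, without overlap between the groups. Of the 17 tested, 6 rose and none fell, and the median of their log2 changes was 2.76 (2.47 when genes without a count in Normal were set to their lower bound). Without MEKi 1 replicate 2, 3 rose. S100a8, a subunit of the neutrophil protein calprotectin, had 3 counts in all Normal libraries and 4.36, 52.3, 23.3 and 56.9 CPM in MEKi 1, 193 times the Normal level (95% interval from counting error, 65.6 to 938) (adjusted p = 0.00237). Vehicle held 164 to 246 CPM of S100a8. The other subunit, S100a9, was at 2.98, 50.4, 14.3 and 28.4 CPM in MEKi 1 and 0 to 0.673 CPM in Normal (log2 fold change 6.59, SE 1.95, adjusted p = 0.0325), a call lost without MEKi 1 replicate 2 or 4 or any 1 Normal library. Csf3r, the receptor for granulocyte colony-stimulating factor, was at 0 to 3.24 CPM in Normal and at 9.17, 40, 11.5 and 10.4 CPM in MEKi 1 (log2 fold change 2.95, SE 0.65, adjusted p = 0.00539).

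Of 19 monocyte and macrophage genes tested, 8 rose and none fell, with a median of 0.83. Their summed level was 801 to 923 CPM in Normal, 1670, 2750, 2100 and 931 CPM in MEKi 1 and 3220 to 4900 CPM in Vehicle. By this sum MEKi 1 replicate 4 stood beside the Normal libraries and the others above them. The median over the list of log2 CPM minus the Normal group mean was 0.73, 1.39, 1.09 and -0.47 in MEKi 1. It was -0.07 to 0.11 in Normal, so by the median replicate 4 lay below Normal, unlike the genes named next. Cd14, the co-receptor for lipopolysaccharide, was at 70.5 to 86.1 CPM in Normal and at 209, 343, 220 and 247 CPM in MEKi 1 (log2 fold change 1.71, SE 0.22, adjusted p = 8.93e-06). C1qa, a chain of complement C1q made by tissue macrophages, was at 47.4 to 56.1 CPM in Normal and at 133, 205, 141 and 56.2 CPM in MEKi 1 (log2 fold change 1.33, SE 0.26, adjusted p = 0.0016), with replicate 4 beside the highest Normal library. Ly6c2, a marker of inflammatory monocytes, rose from 0.654 to 2.38 CPM to 4.81, 8.37, 8.18 and 10.1 CPM (log2 fold change 2.49, SE 0.4, adjusted p = 0.000146), against 15.4 to 23.6 CPM in Vehicle.

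Mast cell proteases were among the strongest differences. Of 6 mast cell and eosinophil genes tested, 5 rose and none fell. The summed level of the 10 listed genes was 54.5 to 60.8 CPM in Normal and 176 to 356 CPM in Vehicle. In MEKi 1 it was 106, 308, 129 and 39.9 CPM, so that the sum of replicate 4 lay below the Normal libraries. The median over the tested genes of log2 CPM minus the Normal group mean was 1.78, 3.99, 3.2 and 1.19 in MEKi 1. In Normal it was -0.3 to 0.15, so the sum does not stand for the whole set. Mcpt1, the chymase of mucosal mast cells, was at 0.336 to 1.53 CPM in Normal and at 36, 186, 44.8 and 13.2 CPM in MEKi 1 (log2 fold change 6.65, SE 1.08, adjusted p = 0.000392), and Vehicle held 86.9 to 242 CPM. Mcpt2, of the same family, had 3 counts in all Normal libraries and 15.4, 76.6, 19.2 and 5.2 CPM in MEKi 1, 193 times the Normal level (95% interval from counting error, 65.5 to 937) (adjusted p = 0.000599). In both genes replicate 2 was the highest and replicate 4 the lowest. These proteases are close copies of one another, and their reads could have been shared. None of 5 B and plasma cell genes passed, although Mzb1, a chaperone of antibody assembly, had no count in Normal and 5.96, 1.26, 10.7 and 0.347 CPM in MEKi 1 (at least 27.6-fold higher, adjusted p = 0.065). The antibody joining chain was listed as Jchain but is named Igj in the counts, so it was not among these 5 genes. Igj had 4 counts in Normal and 74.7, 45.6, 232 and 19.1 CPM in MEKi 1 (log2 fold change 8.56, SE 2.21, adjusted p = 0.0162), a call that was lost without Normal replicate 3 or 4.

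Of 23 TNF and NF-kB target genes, 11 rose and none fell, with a median of 1.73, but 6 rose without MEKi 1 replicate 2. Tnf, the cytokine that the antibody arm of the study targets, was at 3.03, 0, 1.48 and 0.872 CPM in Normal and at 13.5, 40.6, 9.72 and 12.8 CPM in MEKi 1 (log2 fold change 3.72, SE 0.69, adjusted p = 0.00126). Vehicle held 25.9 to 46.7 CPM of Tnf, and MEKi 1 replicate 2 lay in that range. Icam1, the adhesion molecule through which leukocytes leave vessels, rose from 10.8 to 15.8 CPM to 32.8, 69.7, 44.8 and 62.4 CPM (log2 fold change 1.99, SE 0.3, adjusted p = 0.000101). Of 11 complement genes, 6 rose, and C3, the central component of the cascade, rose from 146 to 168 CPM to 364, 804, 448 and 496 CPM (log2 fold change 1.75, SE 0.26, adjusted p = 6.95e-05). Lif, a cytokine of the interleukin-6 family, rose from 0.673 to 4.36 CPM to 9.4, 22, 12.8 and 12.8 CPM (log2 fold change 2.27, SE 0.39, adjusted p = 0.000348), and Vehicle held 12 to 16.4 CPM.

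The summed level of genes of epithelial defence against microbes was 30500 to 38000 CPM in Normal and 31900 to 43100 CPM in MEKi 1, ranges that overlap. Of these 20 genes, 12 rose and 2 fell (Ang4 and Itln1), and the median change was 1.28 on the log2 scale. Without MEKi 1 replicate 2, 6 rose, and without Normal replicate 2 or 3 or MEKi 1 replicate 1, 3 or 4 none fell. Plet1, a lipid-anchored surface protein, was at 5.19, 12.8, 4.99 and 3.92 CPM in Normal and at 635, 1060, 1030 and 1500 CPM in MEKi 1 (log2 fold change 7.36, SE 0.61, adjusted p = 4.36e-08), with 1300 to 1960 CPM in Vehicle. Nos2, the inducible nitric oxide synthase, was at 11.8 to 23.8 CPM in Normal and at 364, 1020, 400 and 700 CPM in MEKi 1 (log2 fold change 5.1, SE 0.57, adjusted p = 3.97e-06). Duox2, the epithelial oxidase that releases hydrogen peroxide, and Duoxa2, its maturation factor, rose by 1.22 (SE 0.16, adjusted p = 1.12e-05) and 2.13 (SE 0.28, adjusted p = 1.13e-05) on the log2 scale. Pla2g2a, a secreted bactericidal phospholipase, went from 310 to 690 CPM to 2910, 4050, 3550 and 5250 CPM (log2 fold change 2.98, SE 0.39, adjusted p = 1.36e-05), a range shared with Vehicle (3560 to 4880 CPM). Mmp7, the epithelial metalloproteinase matrilysin, had 3 counts in Normal and 11.5, 51.7, 16.9 and 79.1 CPM in MEKi 1, 218 times the Normal level (95% interval from counting error, 74.1 to 1060) (adjusted p = 0.000595). Reg3b, a lectin that kills bacteria, was at 0.185 to 1.73 CPM in Normal and at 50.2, 446, 110 and 32.9 CPM in MEKi 1 (log2 fold change 7.6, SE 1.92, adjusted p = 0.0141). Lcn2, which withholds iron from bacteria and is used as a faecal marker of colitis, was at 5.54 to 9.42 CPM in Normal, 22.2, 103, 30.7 and 56.5 CPM in MEKi 1 and 170 to 345 CPM in Vehicle (log2 fold change over Normal 2.96, SE 0.78, adjusted p = 0.0172). The calls of Reg3b and Lcn2 were lost without MEKi 1 replicate 2, and that of Lcn2 also without Normal replicate 4.

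**Figure D3:**
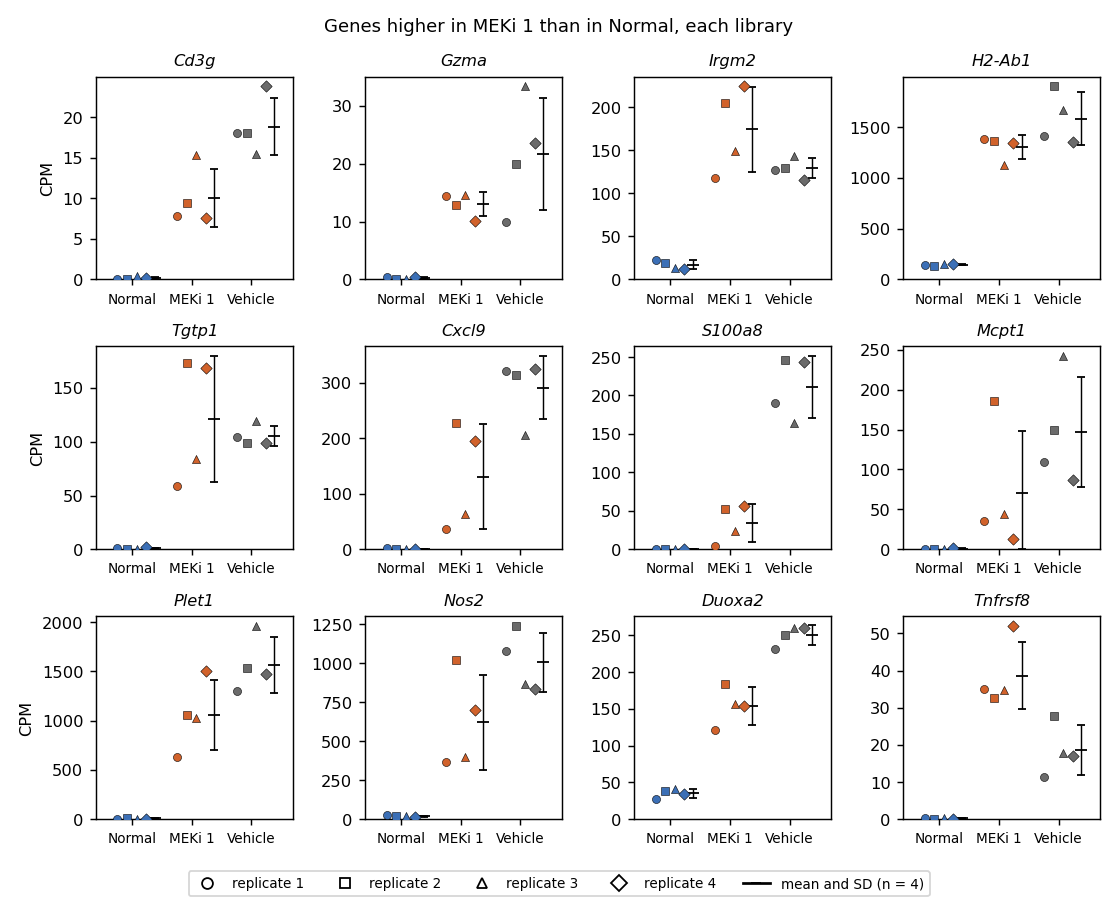
Each panel shows 1 gene in CPM (vertical axis, from 0) in the Normal, MEKi 1 and Vehicle libraries, with a symbol for each replicate and a bar for the mean and SD of each group (n = 4). In all 12 genes every MEKi 1 library lies above every Normal library, and for S100a8 all 4 MEKi 1 libraries lie below Vehicle (4.36 to 56.9 against 164 to 246 CPM).

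Goblet cell genes were changed in part. Of 15, 4 rose (Clca1, Spink4, Spdef and Retnlb) and none fell, with a median of 0.03. The Retnlb call was lost without MEKi 1 replicate 2. Spink4, a peptide of goblet cell granules, was at 263, 320, 293 and 202 CPM in Normal and at 531, 555, 532 and 828 CPM in MEKi 1 (log2 fold change 1.18, SE 0.29, adjusted p = 0.00918). Spdef, a transcription factor of goblet cell maturation, rose by 0.79 (SE 0.2, adjusted p = 0.0111). Muc2, the main secreted mucin, had a log2 fold change of 0.60 and did not pass. None of 13 genes of crypt stem cells and Wnt signalling passed. Of 26 cell cycle genes, 1 rose (Ccnd1, cyclin D1, log2 fold change 0.79, SE 0.25, adjusted p = 0.0372, lost without Normal replicate 1, 3 or 4 or MEKi 1 replicate 2 or 4). Top2a, a topoisomerase of dividing cells, was at 119, 133, 111 and 48.4 CPM in Normal, 99.7, 235, 116 and 202 CPM in MEKi 1 and 242 to 281 CPM in Vehicle. MEKi 1 replicates 1 and 3 thus lay in the Normal range and replicates 2 and 4 above it (log2 fold change 0.67, SE 0.33, adjusted p = 0.182).

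Of 18 genes of mature surface colonocytes, 5 fell, 1 rose (Krt20) and 12 did not pass, with a median of -0.93, with 2 falling without Normal replicate 1 or 4 or MEKi 1 replicate 2 or 4, and 3 without Normal replicate 2 or 3 or MEKi 1 replicate 3. The Krt20 call was lost without Normal replicate 2 or 3 or MEKi 1 replicate 4, and with an offset for transcript length. Their summed level was 15000 to 19000 CPM in Normal, 10200, 4960, 10200 and 10500 CPM in MEKi 1 and 3890 to 5400 CPM in Vehicle, so that replicate 2 stood among the Vehicle libraries. Car1, the carbonic anhydrase of colonocytes, was at 2060, 2830, 2810 and 2390 CPM in Normal and at 382, 63.4, 258 and 388 CPM in MEKi 1 (log2 fold change -3.21, SE 0.64, adjusted p = 0.00268). Vehicle held 129 to 256 CPM of Car1, within the MEKi 1 range. Slc20a1, a sodium-dependent phosphate transporter, fell from 509 to 902 CPM to 232, 88.8, 220 and 162 CPM (log2 fold change -1.93, SE 0.43, adjusted p = 0.00558), and Vehicle held 58.7 to 89.6 CPM. Slc26a3, the chloride-bicarbonate exchanger whose loss causes congenital chloride diarrhoea, was at 1240, 1600, 1450 and 2200 CPM in Normal and at 674, 136, 622 and 486 CPM in MEKi 1 (log2 fold change -1.76, SE 0.57, adjusted p = 0.0497). The groups did not overlap in Slc26a3, but its call was lost whichever 1 of the 8 libraries was left out, and with an offset for transcript length. Cyp2c55, a colonic cytochrome P450, was at 98.9, 213, 168 and 174 CPM in Normal and at 19.5, 0.419, 17.1 and 1.04 CPM in MEKi 1 and did not pass (log2 fold change -4.07, SE 1.35, adjusted p = 0.0547).

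Car1 was 1 of the 10 lowest genes named by the rule on fold change, level and overlap. Ang4, another of them, is an antimicrobial ribonuclease and was at 7.36 to 79.7 CPM in Normal and 0.347 to 5.44 CPM in MEKi 1 (log2 fold change -4.06, SE 1.19, adjusted p = 0.0308). Fxyd4, a regulator of the sodium pump, was at 20.9 to 32.5 CPM in Normal and at 5.04, 1.05, 5.88 and 2.08 CPM in MEKi 1 (log2 fold change -2.88, SE 0.79, adjusted p = 0.02). The calls of both depended on single libraries: that of Ang4 was lost without Normal replicate 2 or 3 or MEKi 1 replicate 1, 3 or 4, and that of Fxyd4 without Normal replicate 4 or MEKi 1 replicate 2 or 4. Itih2, Klk15, Cyp2c69, Aadac and Klb, also among the 10 lowest named by the rule, had log2 fold changes of -3.45, -2.97, -2.87, -2.76 and -2.67. Each of these 5 calls was lost without MEKi 1 replicate 2 and without MEKi 1 replicate 4. That of Klb was also lost without Normal replicate 4, that of Cyp2c69 in each fit but the one without MEKi 1 replicate 3, and that of Klk15 whichever 1 of the 8 libraries was left out. Aldh1a7, a cytosolic aldehyde dehydrogenase, fell from 7.36 to 14.2 CPM to 1.83, 1.47, 2.56 and 0.693 CPM (log2 fold change -2.57, SE 0.46, adjusted p = 0.000471). Upk3b, a uroplakin expressed in the mesothelium that covers the gut, fell from 5.67 to 13.6 CPM to 2.52, 1.67, 1.28 and 0 CPM (log2 fold change -2.82, SE 0.65, adjusted p = 0.00547). Tph1, the enzyme of serotonin synthesis in enterochromaffin cells, fell from 10.8 to 17.5 CPM to 6.42, 5.86, 4.6 and 0.693 CPM (log2 fold change -1.58, SE 0.37, adjusted p = 0.00605). It was 1 of 3 enteroendocrine genes of 11 that fell, with 1 falling without Normal replicate 2 or 4 or MEKi 1 replicate 2 or 4. Cd36, a fatty acid transporter, fell by 1.64 on the log2 scale (SE 0.38, adjusted p = 0.00554), and was 1 of 3 genes that fell (with Hadhb and Plin2, by 0.40 and 0.53) of 19 of fatty acid oxidation or controlled by PPARs. None of the 19 rose, and 1 fell without Normal replicate 4 or MEKi 1 replicate 2 or 4.

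The smooth muscle programme was lower in all MEKi 1 libraries. All 13 smooth muscle genes fell, their median log2 fold change being -1.16, and none overlapped with Normal. Among all genes tested, 4.79% fell and 9.62% lay lower without overlap. Their summed level was 9050 to 11100 CPM in Normal, 5740, 3490, 5060 and 3460 CPM in MEKi 1 and 2040 to 4190 CPM in Vehicle, with replicates 2 and 4 in the Vehicle range. Acta2, smooth muscle alpha-actin, was at 1600, 1950, 1730 and 1440 CPM in Normal and at 973, 571, 921 and 632 CPM in MEKi 1 (log2 fold change -1.12, SE 0.25, adjusted p = 0.00415). Tagln, an actin-binding protein of the same cells, was at 1210 to 1330 CPM in Normal and at 644, 389, 620 and 437 CPM in MEKi 1 (log2 fold change -1.28, SE 0.26, adjusted p = 0.00197). Mylk, the kinase that starts contraction, was at 389 to 485 CPM in Normal and at 251, 148, 250 and 161 CPM in MEKi 1 (log2 fold change -1.09, SE 0.23, adjusted p = 0.00222). The CPM of any gene is relative to the scaled size of its library, and is not an amount of RNA per tissue. Markers of other tissues outside the mucosa were lower in the same libraries: the adipocyte genes summed to 382 to 565 CPM in Normal and 243, 57.8, 128 and 61.7 CPM in MEKi 1, and the skeletal muscle genes to 37.7 to 52.6 CPM and 26.6, 16.3, 20.2 and 17 CPM. Of 8 adipocyte genes tested 2 fell (1 to 6 without 1 library), and neither of 2 skeletal muscle genes passed. How much each layer of the colon wall contributed to a sample was not measured, and its part in these results was not tested.

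Of 13 enteric neuron and glia genes, 6 fell, none rose and 7 did not pass, with a median of -1.46, and 3 fell without Normal replicate 2, 3 without MEKi 1 replicate 2 and 2 without MEKi 1 replicate 4. Their summed level was 157 to 183 CPM in Normal and 95.6, 51.7, 92.6 and 38.5 CPM in MEKi 1, with 35.3 to 82 CPM in Vehicle. Prph, peripherin, an intermediate filament of peripheral neurons, was at 14.1, 21.5, 14.2 and 19.4 CPM in Normal and at 9.63, 4.4, 7.16 and 3.12 CPM in MEKi 1 (log2 fold change -1.48, SE 0.36, adjusted p = 0.00891). Tubb3, the neuronal beta-tubulin, fell by 1.46 on the log2 scale (SE 0.36, adjusted p = 0.00836). In both lists replicates 2 and 4 were the lowest. Of 18 collagen and matrix genes, 4 fell (Col6a1, Col6a3, Lum and Tnc) and none rose, with 1 falling without Normal replicate 3 or MEKi 1 replicate 2 and 2 without Normal replicate 1 or 2 or MEKi 1 replicate 4. Tnc, tenascin C, was at 118, 81.1, 76.6 and 67.1 CPM in Normal and at 43.3, 28.9, 39.9 and 22.2 CPM in MEKi 1 (log2 fold change -1.34, SE 0.34, adjusted p = 0.0112). Col1a1, a chain of the main fibrillar collagen, had a log2 fold change of 0.00 and did not pass. Timp3, a matrix-bound inhibitor of metalloproteinases, fell from 122 to 161 CPM to 62.6, 63.6, 76.7 and 50.6 CPM (log2 fold change -1.11, SE 0.19, adjusted p = 0.00025).

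**Figure D4:**
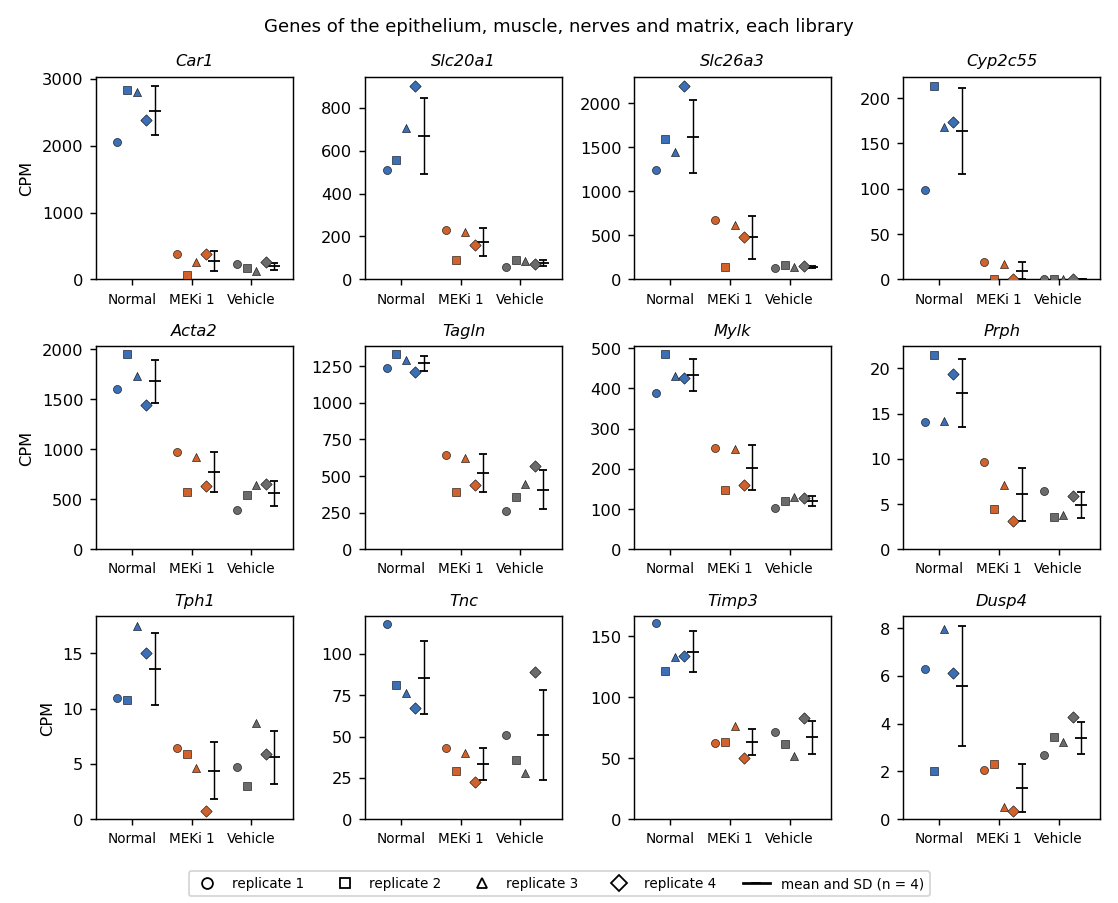
Each panel shows 1 gene in CPM (vertical axis, from 0) in the Normal, MEKi 1 and Vehicle libraries, with a symbol for each replicate and a bar for the mean and SD of each group (n = 4). MEKi 1 libraries lie below Normal in the genes drawn, except that Dusp4 overlaps, and replicate 2 is the lowest MEKi 1 library for Car1, Slc20a1 and Slc26a3.

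Genes that report ERK activity gave no common direction. Of 15 tested, 2 fell and none rose, with a median of -0.24. Dusp4, a nuclear phosphatase of ERK, was at 6.27, 2.02, 7.94 and 6.1 CPM in Normal and at 2.06, 2.3, 0.511 and 0.347 CPM in MEKi 1 (log2 fold change -2.02, SE 0.5, adjusted p = 0.00941), a call that was lost with a replicate block in the fit of only the groups compared. Etv4 was at 9.15 to 31.6 CPM in Normal and 8.02 to 13 CPM in MEKi 1 (log2 fold change -1.01, SE 0.32, adjusted p = 0.0376), a call that held in only 1 of the 8 fits without 1 library, that without Normal replicate 4. Dusp6, the cytosolic ERK phosphatase, was at 41 to 58.9 CPM in Normal and 58.2 to 82.3 CPM in MEKi 1 and did not pass (log2 fold change 0.37, SE 0.22, adjusted p = 0.281), nor did Spry4 (0.63, SE 0.29, adjusted p = 0.152) or Etv5 (-0.02, SE 0.35, adjusted p = 0.975). Among 14 EGF receptor ligands and immediate early genes, 5 rose and none fell. Fos, a subunit of AP-1, was at 68.4, 73, 92.1 and 93.3 CPM in Normal and at 165, 183, 198 and 173 CPM in MEKi 1 (log2 fold change 1.14, SE 0.2, adjusted p = 0.000366), with 140 to 225 CPM in Vehicle. Hbegf, a ligand of the EGF receptor, rose from 5.36 to 10.8 CPM to 11.9, 15.7, 25.8 and 22.2 CPM (log2 fold change 1.42, SE 0.33, adjusted p = 0.00624).

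A small set of genes in MEKi 1 lay outside the range of both untreated and vehicle-treated colon. MEKi 1 differed from Vehicle in 1565 genes (10.6%), 898 (6.08%) higher and 667 (4.51%) lower, and lay without overlap above Vehicle in 10.4% and below it in 8.83% of all genes. The count of 1565 ran from 43 (without MEKi 1 replicate 1) to 2369 (without MEKi 1 replicate 2) when 1 library was left out. It fell to 220 without MEKi 1 replicate 3. Leaving out Vehicle replicate 1, 2 or 4 gave 324, 812 and 128 genes. Of the 14773 genes tested, 21 were higher in MEKi 1 and 25 were lower in both tests and in the same direction. Passing both tests does not by itself put a gene outside the range of both groups. Of these genes, 12 and 13 also had no overlap with either group and a mean of at least 5 CPM. Predicted, Riken, immunoglobulin segment and pancreas genes were left out of the 12 and 13. Trpv6, an epithelial calcium channel, was at 1.08, 0, 4.43 and 1.53 CPM in Normal, 148, 34.3, 96.9 and 69.3 CPM in MEKi 1 and 2.68, 15.4, 20.7 and 0.406 CPM in Vehicle. It was 5.45 (SE 1.2, adjusted p = 0.00575) above Normal and 3.17 (SE 0.99, adjusted p = 0.0472) above Vehicle on the log2 scale. Pipox, a peroxisomal oxidase of sarcosine and pipecolic acid, was at 0 to 1.73 CPM in Normal, 11.5, 11.1, 11 and 18 CPM in MEKi 1 and 1.02 to 4.75 CPM in Vehicle (3.73, SE 0.72, adjusted p = 0.00133 over Normal, and 2.37, SE 0.62, adjusted p = 0.0254 over Vehicle). Id3, an inhibitor of basic helix-loop-helix factors, was at 66.3 to 101 CPM in Normal, 187, 133, 140 and 221 CPM in MEKi 1 and 80.6 to 123 CPM in Vehicle (1.04, SE 0.21, adjusted p = 0.00178, and 0.69, SE 0.21, adjusted p = 0.0374). Tnfsf13os, transcribed opposite to the cytokine gene Tnfsf13, was at 5.05 to 11.3 CPM in Normal, 27.5, 25.1, 24.8 and 30.9 CPM in MEKi 1 and 7.72 to 14.3 CPM in Vehicle (1.6, SE 0.28, adjusted p = 0.00039, and 1.15, SE 0.27, adjusted p = 0.0163). Whether its counts used strand is not given in the sources used here, so reads of the 2 overlapping genes cannot be told apart.

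Among the lower genes, Hspb1, a small heat shock protein, was at 57.2 to 68.1 CPM in Normal, 24.5, 22.2, 25.3 and 28.1 CPM in MEKi 1 and 31.6 to 53.8 CPM in Vehicle (log2 fold changes of -1.33, SE 0.19, adjusted p = 2.07e-05, against Normal and -0.85, SE 0.19, adjusted p = 0.0121, against Vehicle). Akr1b8, an aldo-keto reductase, was at 43.2 to 92.3 CPM in Normal, 22.9 to 28.8 CPM in MEKi 1 and 38.9 to 78.1 CPM in Vehicle (-1.55, SE 0.33, adjusted p = 0.00334, and -1.35, SE 0.33, adjusted p = 0.0195). Arl14, a small GTPase, was at 6.09 to 11.4 CPM in Normal, 2.98, 2.3, 3.58 and 2.43 CPM in MEKi 1 and 4.75 to 11.4 CPM in Vehicle (-1.5, SE 0.31, adjusted p = 0.00212, and -1.28, SE 0.31, adjusted p = 0.017). The differences of these 3 genes from Normal passed in all 8 fits that left out 1 library, as did those of Trpv6, Pipox, Id3 and Tnfsf13os. The differences from Vehicle held in 6 of 8 such fits for Hspb1 (lost without Vehicle replicate 4 or MEKi 1 replicate 1). They held in 6 of 8 for Tnfsf13os (lost without the same 2 libraries) and 5 of 8 for Arl14 (lost without Vehicle replicate 1 or 4 or MEKi 1 replicate 1). They held in 4 of 8 for Akr1b8 and Pipox, both lost without Vehicle replicate 1 or 4 or MEKi 1 replicate 1 or 3. For Trpv6 and Id3 they held in 2 of 8 and were lost without Vehicle replicate 1, 2 or 4 or MEKi 1 replicate 1, 3 or 4.

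**Figure D5:**
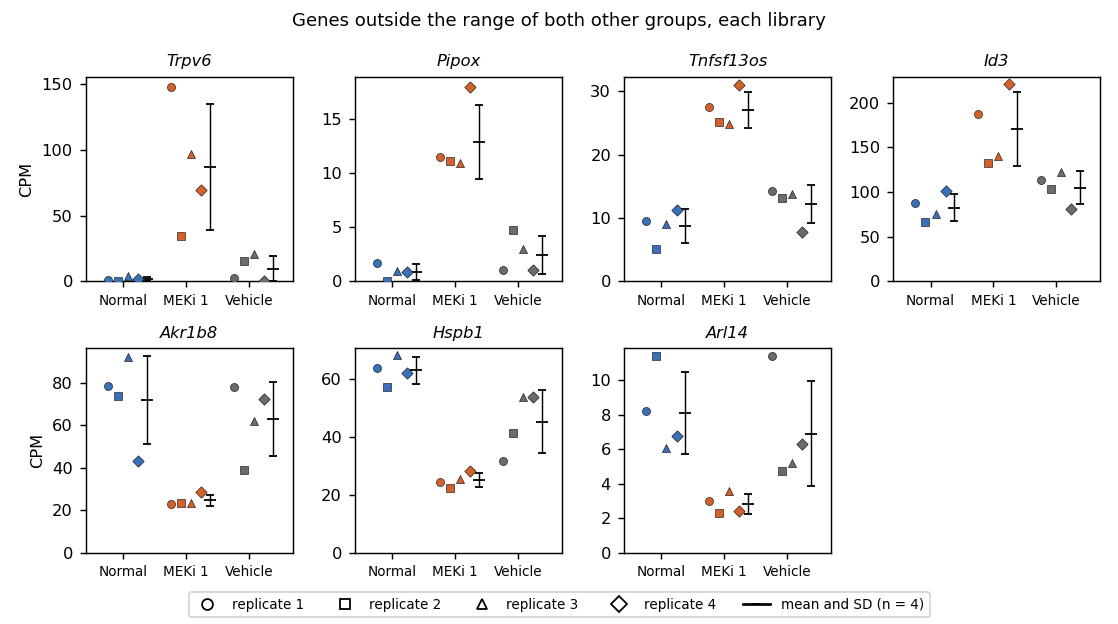
Each panel shows 1 gene in CPM (vertical axis, from 0) in the Normal, MEKi 1 and Vehicle libraries, with a symbol for each replicate and a bar for the mean and SD of each group (n = 4). The MEKi 1 libraries of the 4 genes in the upper row all lie above the other 8 libraries, and those of the 3 genes in the lower row all lie below them.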

How the data were processed

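RNA-seq of mouse colon (Ion Torrent, polyadenylated RNA, per the labels' protocols) was available as gene-level read counts, 1 file per library plus a table of the series. The counts were deposited by the authors, on mm10 per the submitters' processing notes. How reads were aligned and counted, with strand or without, is not given in the sources used here. Groups came from each sample's own file. Genes were filtered by group (filterByExpr), scaled by TMM and tested in edgeR 4.0.16 (quasi-likelihood, robust) over all 24 libraries, with Benjamini-Hochberg adjustment within a comparison and a threshold of 0.05. The SE is the ratio of the log2 fold change to the root of F. CPM uses TMM-scaled library sizes. A group without counts was given a floor of 3 counts in all for a fold, and with 1 to 3 counts the fold is a ratio with an exact 95% interval. Intervals and floors cover counting error only.

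Genes named are the 10 highest and 10 lowest log2 fold changes without overlap and with a mean of at least 5 CPM, up to 4 genes of smallest p per list, up to 5 genes each way outside both other groups, and a fixed set of disease and ERK genes. Outside the rule, chosen after their values were seen, are Cd27, Cd28, Ctss, H2-Ob, Itln1, Gsdma, Gsdmc2, Gsdmc3, Gsdmc4, Muc2 and Col1a1 as list members, and Gbp7, Igtp, Tgtp2 and H2-Aa for their promoters. The members, lists and rule were chosen with earlier results of these data known. On simulated counts of MEKi 1 against Normal (14453 genes), 100 of 100 genes changed by 2 on the log2 scale were recovered and 64 of 100 changed by 1, with 10 false calls. Alternatives were DESeq2 1.42.0, limma 3.58.1 (voom with sample weights), other scalings and filters, a replicate block, a length offset, the table's names and leaving out each library. Some results that the naming rule would give are not reported here.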

Additional observations from a re-analysis of the deposited data

Results flagged for a closer look

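Each value below came from a library whose gap to the nearest of the other 3 of its group took more of the group's range than Dixon's 95% critical value for 4 samples allows. In 369 such groups of values 24 were marked (6.5%), and chance marks about 1 in 20.

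In MEKi 1 replicate 2, Csf3r was at 40 CPM against at most 11.5 in the others, Tnf at 40.6 against 13.5, Ifng at 3.35 against 0.767 and Dusp6 at 82.3 against 60.9, while the summed surface colonocyte genes were at 4960 CPM against at least 10200. In MEKi 1 replicate 4, Spink4 was at 828 CPM against at most 555, Tnfrsf8 at 52 against 35.1, Pipox at 18 against 11.5 and Akr1b8 at 28.8 against 23.5. In MEKi 1 replicate 3, H2-Ab1 was at 1130 CPM against at least 1340.

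Among the Normal libraries, replicate 1 was high for Cxcl9 (1.73 CPM against at most 0.436). Replicate 2 was high for Plet1 (12.8 against 5.19) and Lum (81.1 against 61.4). Replicate 3 held the only Igj counts of Normal (0.739 CPM), and replicate 4 was high for H2-DMa (22.7 against 19.2) and Mcpt1 (1.53 against 0.433).

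Among the Vehicle libraries, the pancreatic enzyme genes summed to 6070 CPM in replicate 4 against at most 39.6. Replicate 1 was high for Cd36 (6.4 against 3.65) and Etv4 (20.2 against 14.1), and replicate 2 for Fxyd4 (3.61 against 0.826). Replicate 3 was low for Cxcl9 (206 against at least 313) and high for Gsdmc2 (15.7 against 3.8), Klb (1.25 against 0.826) and Aadac (0.249, with 0 in the others).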

How the results depend on the processing

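The count of genes that differed between MEKi 1 and Normal, 1898, was 2323 with DESeq2, 2136 with limma-voom, 1864 with RLE factors, 1779 with library size only, 1522 without a filter and 1895 with a length offset. It ran from 1026 to 2085 when 1 library was left out. With groups by the table's column names 1 gene differed, and with only the libraries named alike in both, an alternative chosen after seeing the data, 73 did. For MEKi 1 against Vehicle, 1565 became 4807 with limma-voom, 773 without a filter and 0 with the table's names, and ran from 43 to 2369 when 1 library was left out. For Vehicle against Normal, 6853 became 0 with the table's names (5983 to 6614 without 1 library). At the depth of 3052940 to 5358259 counts, 64 of 100 genes simulated with a log2 fold change of 1 were recovered. These had a mean of at least 5 CPM, and the spread was the same in all genes. Of the genes named, calls against Normal were lost for Ang4, Csf3r, Ifng, Igj, Lcn2, Mmp7, Reg3b, S100a8, S100a9, Hadhb and Trpv6 with limma-voom, for Klk15 and Cyp2c69 with DESeq2, for Ang4, Ccnd1, Etv4, Hadhb, Ifng, Itln1, Klb, Klk15, Cyp2c69, Lum, S100a9 and Slc26a3 without a filter, for Ccnd1, Col6a1 and Slc26a3 with library size only, for Col6a3, Krt20 and Slc26a3 with a length offset, and for Hadhb with only the groups compared. Against Vehicle, Trpv6 was lost without a filter, with library size only, with only the groups compared and with both blocks, Id3 without a filter and with both blocks, and Pipox without a filter. Gained were Cyp2c55 (DESeq2, limma-voom and both fits of only the groups compared), Gsdmc2 and Gsdmc3 (both fits of only the groups compared), Gsdmc4 (those and limma-voom), Mzb1 (DESeq2), Muc2 (only the groups compared) and Tnfrsf8 against Vehicle (limma-voom and both fits of only the groups compared).

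The labels give the groups the same replicate numbers, but same-numbered MEKi 1 and Normal libraries did not deviate together (r of -0.056, -0.101, 0.009 and -0.08). Every MEKi 1 library correlated better with a Normal library of another number. With the replicate number as a block, 1632 genes differed in the fit of all groups and 1207 in the fit of only the groups compared. The former lost the calls of Col6a1, Hadhb, Klk15 and Slc26a3, the latter those of Dusp4, Etv4, Hadhb and Plin2.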
